A study of Mus musculus with 20 samples.

Results

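Genes that start, restrain and dissolve blood clots were followed in bone marrow endothelial cells after irradiation. The 10 genes were chosen by name, 4 anticoagulant (Procr, Thbd, Tfpi and Pros1), 3 procoagulant (F3, F8 and Vwf) and 3 of fibrinolysis (Plat, Plau and Plaur), out of 18194 genes measured. Each gene is given by its brightest probe set that carries a single gene symbol, and all 10 had at least 1. The RNA came from VE-cadherin+ bone marrow endothelial cells, as labelled, of adult C57/Bl6 mice aged 8 to 10 weeks. It was amplified and hybridized to 20 Affymetrix arrays, 5 for each of 4 groups. The groups were non-irradiated mice and mice taken 6 hours, 24 hours or 14 days after total body irradiation with 5 Gy. Arrays within a group are labelled as biological replicates, but whether a replicate is 1 mouse or several pooled is not given, so p-values measure only how these samples spread, which may in part be technical.

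Endothelium keeps blood fluid. Thrombin that reaches the vessel wall is bound by thrombomodulin (Thbd), which turns it towards activating protein C held by the endothelial protein C receptor (Procr), and protein S (Pros1) is the cofactor of activated protein C. Tissue factor pathway inhibitor (Tfpi) blocks the complex of tissue factor (F3) with factor VIIa, the trigger of clotting. Factor VIII (F8) is the cofactor that speeds up clotting and circulates bound to von Willebrand factor (Vwf), which also tethers platelets and is stored in endothelial cells. Clots are dissolved by plasmin, which is made by tissue plasminogen activator (Plat) and urokinase (Plau), and Plaur encodes the urokinase receptor.

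The regions just before the start sites of Procr, Tfpi, F3 and Plaur are shown because these 4 genes took different courses after irradiation. RefSeq promoter entries (build GRCm38.p6) matched 6 of the 10 genes, with 7 start sites in all, and Thbd, Vwf, Plat and Plau had no entry. Each sequence is the 250 bases before the start, 5′ to 3′ on the gene's strand. Capitals mark matches on either strand to TGANTCA, the site of AP-1, a transcription factor made of Fos and Jun proteins.
Procr, chr2:155750967-155751216, plus strand: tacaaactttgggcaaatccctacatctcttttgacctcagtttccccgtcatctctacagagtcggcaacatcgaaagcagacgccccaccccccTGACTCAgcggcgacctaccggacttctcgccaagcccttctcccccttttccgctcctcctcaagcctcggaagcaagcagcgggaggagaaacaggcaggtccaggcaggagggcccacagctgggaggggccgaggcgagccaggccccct
Tfpi, chr2:84476760-84477009, minus strand: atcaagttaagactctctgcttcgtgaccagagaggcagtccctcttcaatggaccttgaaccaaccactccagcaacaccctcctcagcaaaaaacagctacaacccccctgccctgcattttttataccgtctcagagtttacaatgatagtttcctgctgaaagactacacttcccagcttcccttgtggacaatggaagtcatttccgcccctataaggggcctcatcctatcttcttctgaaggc
F3, chr3:121723287-121723536, plus strand: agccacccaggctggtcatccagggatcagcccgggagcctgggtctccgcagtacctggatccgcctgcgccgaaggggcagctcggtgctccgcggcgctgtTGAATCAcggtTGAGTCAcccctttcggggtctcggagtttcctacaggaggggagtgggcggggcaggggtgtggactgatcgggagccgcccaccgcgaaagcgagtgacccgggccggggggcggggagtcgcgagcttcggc
Plaur, chr7:24462233-24462482, plus strand: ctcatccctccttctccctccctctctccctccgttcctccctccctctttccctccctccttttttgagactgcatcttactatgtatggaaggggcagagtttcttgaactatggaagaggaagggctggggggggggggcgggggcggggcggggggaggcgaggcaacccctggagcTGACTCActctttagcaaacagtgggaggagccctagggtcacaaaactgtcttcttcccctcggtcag

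F3 held 2 matches, which began 146 and 135 bases before its start, Procr held 1 at 154 bases and Plaur 1 at 69 bases. The Tfpi sequence shown held none, and neither did the other Tfpi start, Pros1 or F8. Of all 32851 promoter entries 6.75% held a match in the same window. The shorter CACCC, read by Krüppel-like factors, was found in 5 of the 7 entries and in 52.0% of all. A form of the NF-kB site was also found in 5 of 7, against 17.6% of all. All 3 patterns were searched on both strands. A match is a run of letters, and none of these arrays measured binding.

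Endothelial marker signal differed between the groups. Of 28 measured pan-endothelial markers 0 lay at background on all arrays of an irradiated group. In the summed signal of the list the non-irradiated arrays lay between 29728 and 33254, the 6-hour arrays between 85399 and 92353, the 24-hour arrays between 44827 and 47487 and the day 14 arrays between 14579 and 16462. Markers called higher or lower than in the non-irradiated group numbered 26 and 0 at 6 hours, 12 and 0 at 24 hours and 1 and 20 at day 14. Of all genes 12.9% and 14.5% were so called at 6 hours, 15.7% and 13.8% at 24 hours and 9.47% and 13% at day 14. The other marker counts given here stand beside the same shares. Of 12 sinusoidal endothelial markers 9 were higher and 1 lower at 6 hours, 7 and 1 at 24 hours and 0 and 0 at day 14. Their summed signal was 34839 to 39277, 24679 to 26090 and 13519 to 14346 in order of time, against 13946 to 15084. Of 11 arterial markers 5 were higher and 1 lower at 6 hours, 4 and 1 at 24 hours and 0 and 5 at day 14. Megakaryocyte markers, of which 10 were measured, had 8 higher and 1 lower at 6 hours, with a summed signal of 38079 to 46896 against 14734 to 16916. At day 14 they had 1 higher and 6 lower (13242 to 14768). Of 14 stromal and mural markers 10 were higher and 1 lower at 6 hours (107474 to 132476, against 88484 to 100133), 8 and 3 at 24 hours (93949 to 115976), and 2 and 4 at day 14 (71214 to 85571). The part of these cells in the results was not tested. The sum of 13 pan-leukocyte markers was 49041 to 55573 at 6 hours and 40811 to 43662 at day 14, against 49964 to 57489. That of 10 erythroid markers was 5481 to 9919 at 6 hours, 2212 to 2978 at 24 hours and 56092 to 70409 at day 14, against 46505 to 49871. In such bulk samples fewer cells of a type and less RNA per cell cannot be told apart. Arrays also differed in their median signal (167 to 194 without irradiation, 87.3 to 109 at day 14) and, at 6 hours, in the spread between replicates (median absolute log2 difference of a pair 0.611 to 0.676, against 0.285 to 0.419 in the other groups).

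Most of the 10 genes rose within a day of irradiation, and at day 14 most did not pass the test against non-irradiated cells. At 6 hours 7 of the 10 were higher and 0 lower than in non-irradiated cells, where 12.9% of all genes were called higher and 14.5% lower. At 24 hours the counts were again 7 and 0, against 15.7% and 13.8%. At day 14 they were 2 and 2, with 9.47% of all genes higher and 13% lower. All 10 lay above background on every array of at least 1 group, as did 76.8% of all genes. The shares of all genes include the dim rest and are no even comparison. A gene counts as called where limma's two-sided test gave p under 0.05 after Benjamini-Hochberg adjustment across the 18194 genes. Adjusted p-values come from this fit unless an alternative is named, and each alternative was fitted and adjusted anew with the same test. Those of a gene's dimmer probe sets come from a fit to all 34958 probe sets with a single gene symbol. At an unadjusted p under 0.05 the counts were 7 and 0 at 6 hours, 8 and 0 at 24 hours and 2 and 2 at day 14. The median log2 change of the 10 genes was 1.51, 1.01 and -0.13 at the 3 times, beside -0.02, -0.07 and -0.18 over all genes. The 7 genes were Procr, Thbd, Tfpi, Pros1, F8 and Plau at both early times, with Vwf at 6 hours and F3 at 24 hours. In each of the 7 called at a time every array of that time lay above every non-irradiated one, a pattern seen in 7.59% of all genes at 6 hours and 15.1% at 24 hours (8.05% and 12.9% lay wholly below). At day 14, 1 gene lay wholly above and 2 wholly below, against 11.4% and 11.6%. The 3 comparisons with non-irradiated mice share those 5 arrays.

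**Figure D1:**
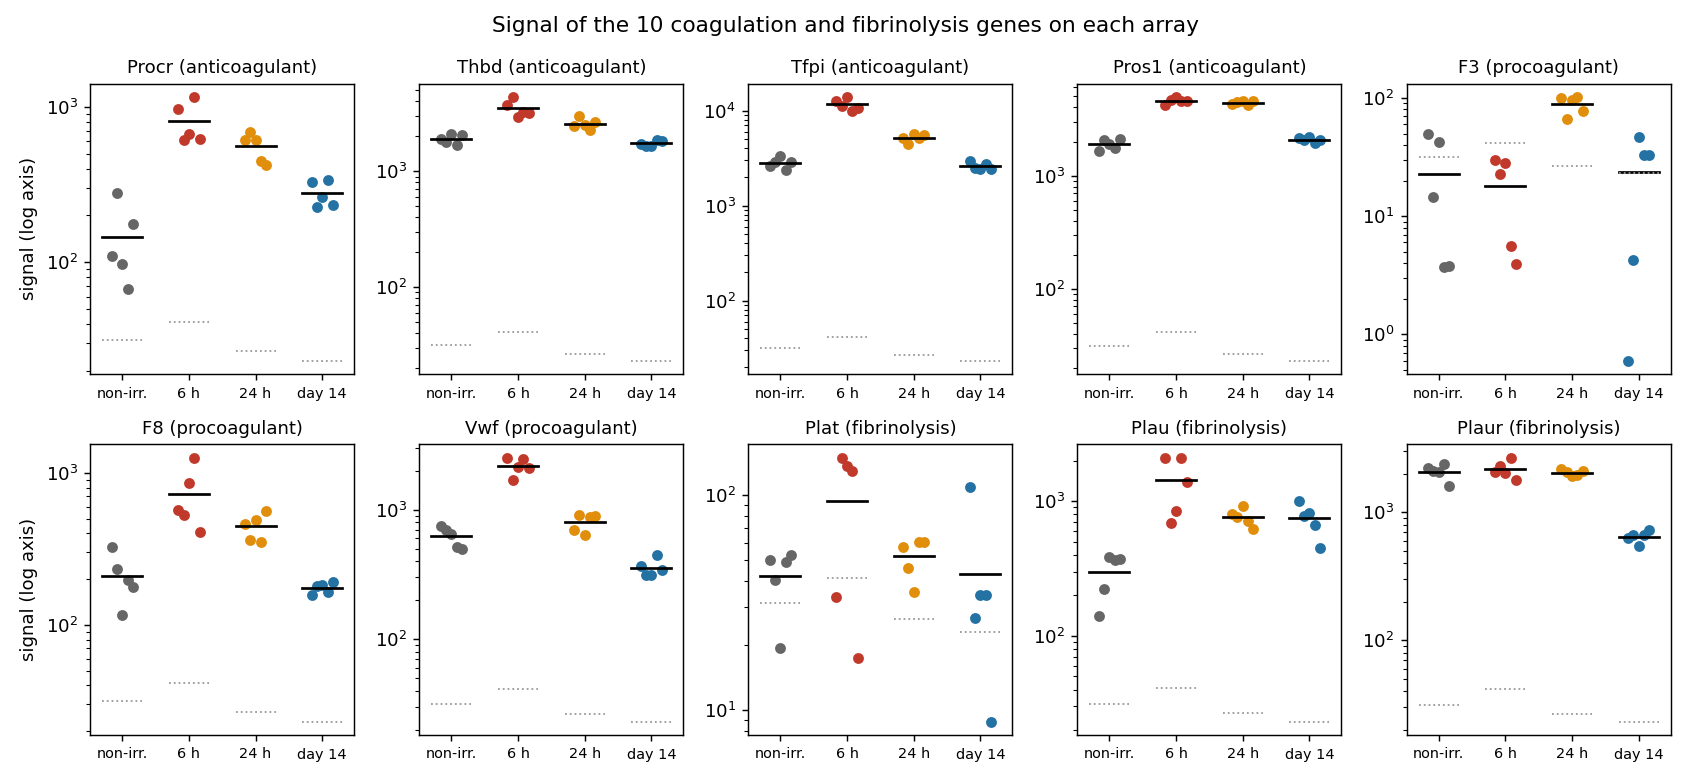
Signal of each of the 10 genes (log axis, deposited scale) on the 5 arrays of each group. Points are arrays, black bars are group means and dotted lines the mean background of the group's arrays. Procr, Thbd, Tfpi, Pros1, F8, Vwf and Plau lay above all non-irradiated arrays at 6 hours, Plaur lay below all others at day 14, and F3 and Plat lay near background.

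The protein C receptor gene Procr showed the largest rise at 6 hours among the 10. Its signal was 109, 280, 96.8, 67.6 and 175 on the non-irradiated arrays. It was 976, 612, 671, 1162 and 626 at 6 hours, 611, 686, 616, 449 and 425 at 24 hours, and 329, 227, 263, 339 and 233 at day 14. Both early groups stood clear of the non-irradiated arrays, and the day 14 arrays overlapped with replicate 2 of that group. The log2 change was 2.59 ± 0.302 (SE; adjusted p = 2.26e-07) at 6 hours, 2.08 ± 0.302 (5.08e-06) at 24 hours and 1.08 ± 0.302 (0.0113) at day 14. The last call was lost with the pan-leukocyte marker mean as a covariate (0.45 ± 0.478, adjusted p = 0.6). It was also lost with the 3′ minus 5′ signal of Gapdh as one (1.11 ± 0.446, 0.0928), where the SE was larger but the change was not smaller. In order of level the groups ran from non-irradiated over day 14 and 24 hours to 6 hours, and the last step of 0.51 did not pass (adjusted p = 0.237). The only probe set of Procr is one that can also bind related transcripts.

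Thrombomodulin rose less. The signal of Thbd was 1896, 1774, 2090, 1673 and 2059 without irradiation. It was 3760, 4388, 2919, 3216 and 3161 at 6 hours and 2467, 2983, 2495, 2277 and 2656 at 24 hours. At day 14 it read 1712, 1640, 1660, 1873 and 1833, within the range of the non-irradiated arrays but for its 2 lowest values, 1640 and 1660. The log2 change was 0.87 ± 0.114 (adjusted p = 1.49e-06) at 6 hours, 0.44 ± 0.114 (0.00416) at 24 hours and -0.12 ± 0.114 (0.481) at day 14. The fall of 0.43 from 6 to 24 hours also passed (0.00706), but not with arrays centred on their medians (-0.30, 0.104) or with either covariate (0.251 and 0.112). The 24-hour call was lost with the 3′ minus 5′ covariate (0.29 ± 0.191, adjusted p = 0.332), a signal that was 1.27 to 1.36 on the non-irradiated and 0.72 to 0.86 on the 24-hour arrays.

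Tfpi had the largest F statistic of the 10 genes over the 4 groups (186, adjusted p = 7.78e-15). Its signal was 2630, 2846, 3337, 2399 and 2909 without irradiation and 12555, 11232, 13985, 9957 and 10608 at 6 hours. It stood at 5117, 4455, 5731, 5133 and 5512 at 24 hours and at 2934, 2465, 2444, 2775 and 2400 at day 14. No array of one early group reached the values of the other or of the non-irradiated group. The rise of 2.04 ± 0.103 at 6 hours (adjusted p = 7.51e-14) was followed by 0.88 ± 0.103 at 24 hours (2.11e-07) and -0.11 ± 0.103 at day 14 (0.459). Of the 3 other Tfpi probe sets all rose at 6 hours, by 1.35, 1.76 and 1.83, and at 24 hours, by 0.89, 0.77 and 1.07. At day 14 they read 0.22, 0.15 and 0.49, and the last of these, the dimmest probe set, passed (adjusted p = 0.0322) where the brightest did not.

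Protein S was at a like level at both early times. Pros1 ranged from 1653 to 2104 without irradiation, from 4180 to 4960 at 6 hours, from 4174 to 4545 at 24 hours and from 1943 to 2199 at day 14. The 2 early groups overlapped with each other and lay above all other arrays. The change was 1.27 ± 0.0883 at 6 hours (adjusted p = 2.55e-11) and 1.22 ± 0.0883 at 24 hours (3.98e-11), with a difference of -0.05 between them that did not pass (0.726). It fell by 1.08 on the log2 scale from 24 hours to day 14 (2.99e-10), where the change from the non-irradiated group did not pass (0.14 ± 0.0883, 0.276). That change did pass with arrays centred on their medians (1.04, 3.71e-08) or on the pan-endothelial markers (1.15, 1.75e-10).

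Of the procoagulant genes Vwf rose early and ended below its starting level. Its signal was 751, 693, 649, 519 and 500 without irradiation and 2525, 1709, 2136, 2462 and 2114 at 6 hours. It was 692, 906, 639, 878 and 893 at 24 hours and 369, 314, 311, 450 and 340 at day 14. All 6-hour arrays stood above and all day 14 arrays below every non-irradiated array, while the 24-hour arrays overlapped with the latter. The log2 change was 1.82 ± 0.171 (adjusted p = 6.29e-09) at 6 hours and 0.37 ± 0.171 (0.113) at 24 hours. At day 14 it was -0.80 ± 0.171 (0.00147), and 0.10 (0.668) once each array was centred on its median. The decline of 1.45 between 6 and 24 hours passed in its own test (4.68e-07). Both Pf4, a platelet chemokine gene of megakaryocytes (1.55 ± 0.0906), and Cdh5, the VE-cadherin gene (1.49 ± 0.123), rose in the same 6-hour arrays, and megakaryocytes also make von Willebrand factor. Their part in the result was not tested.

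F8 rose at both early times with a wide spread at 6 hours. The non-irradiated arrays ranged from 116 to 325, the 6-hour arrays from 410 to 1261, the 24-hour arrays from 351 to 559 and the day 14 arrays from 158 to 191. Each early array lay above the non-irradiated ones. The change was 1.75 ± 0.287 at 6 hours (adjusted p = 3.37e-05), 1.14 ± 0.287 at 24 hours (0.00323) and -0.19 ± 0.287 at day 14 (0.672). The step from 24 to 6 hours, 0.61, did not pass (0.132).

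Tissue factor was at or near the arrays' background except at 24 hours. The background of an array was set at the 95th percentile of 27 bacterial control probe sets on that array, a mean of 31.4, 41.3, 26.6 and 23.1 in the 4 groups in order of time. F3 read 49.3, 14.6, 42.5, 3.75 and 3.80 without irradiation and 30.1, 22.5, 28.4, 5.64 and 3.98 at 6 hours. It read 100.1, 65.9, 96.8, 102 and 77.8 at 24 hours and 0.597, 4.27, 46.6, 33.1 and 33.2 at day 14. The number of arrays above background was 2, 0, 5 and 3 of 5, so the 24-hour group was the one that stood clear. Against the 6-hour group, whose arrays were all at background, F3 was at least 2.12-fold higher at 24 hours (adjusted p = 0.0268). Against non-irradiated cells the fitted change was 2.55 ± 0.843 (0.0229), which is no exact size because 3 of those arrays lay at background. That call was lost without non-irradiated replicate 4 (2.13, 0.074) or replicate 5 (2.14, 0.0736).

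The urokinase gene Plau was higher at all 3 times. Its signal was 140, 222, 388, 366 and 370 without irradiation and 2105, 685, 852, 2103 and 1394 at 6 hours. It was 804, 759, 915, 711 and 618 at 24 hours and 1003, 775, 821, 669 and 450 at day 14. No irradiated array fell within the range of the non-irradiated ones. The log2 change was 2.22 ± 0.305 (adjusted p = 2.85e-06), 1.44 ± 0.305 (0.000582) and 1.37 ± 0.305 (0.00209) in order of time. The 24-hour and day 14 levels did not differ beyond their spread (-0.07, 0.884). The dimmer Plau probe set read 1.94, 1.75 and 0.95, and its day 14 value did not pass (0.0615). The day 14 call of the brighter one was lost with the pan-leukocyte covariate (1.58 ± 0.508, adjusted p = 0.0579) and the 3′ minus 5′ covariate (1.27 ± 0.45, 0.0583). The latter also took the 24-hour call (1.31 ± 0.521, 0.0822). In these fits the SE was larger, while the change stayed near or above its value without a covariate.

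The urokinase receptor took another course. Plaur read 2219, 2106, 2045, 2361 and 1588 without irradiation and 2061, 2315, 2030, 2670 and 1794 at 6 hours. It read 2168, 2062, 1928, 1958 and 2105 at 24 hours and 633, 665, 540, 661 and 725 at day 14. The first 3 groups overlapped throughout and the last lay below all of them. The change was 0.07 ± 0.13 (adjusted p = 0.737) at 6 hours and 0.00 ± 0.13 (0.992) at 24 hours, then -1.67 ± 0.13 (8.95e-10) at day 14, a level 3.18-fold lower. From 24 hours to day 14 it fell by 1.67 as well (1.21e-10), but relative to pan-endothelial markers this step was -0.11 (0.475). Its day 14 value kept its sign and passed in all 33 alternatives, from -1.76 to -0.65. Macrophages and granulocytes also carry this receptor. Of 13 monocyte and macrophage markers 1 was higher and 2 lower at day 14 (summed signal 10655 to 12822, against 14517 to 16743), and of 11 granulocyte markers 2 were higher and 5 lower (84514 to 105883, against 117711 to 135031). Of all genes 9.47% were higher and 13% lower at day 14, and the monocyte and macrophage counts lay near those shares. The part of these cells in the result was not tested.

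Tissue plasminogen activator was dim throughout. Plat ranged from 19.4 to 52.7 without irradiation, from 17.4 to 150 at 6 hours, from 35.4 to 60.6 at 24 hours and from 8.80 to 109 at day 14. The groups overlapped and no comparison passed, with changes of 0.78 ± 0.602, 0.34 ± 0.602 and -0.32 ± 0.602 against non-irradiated cells (adjusted p = 0.384, 0.728 and 0.736). Its signal was above background on 16 of 20 arrays. With dim genes left out, 8 of the 10 genes remained, F3 and Plat being the others.

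Set against each other, the irradiated groups showed a decline from the early to the late time. From 6 to 24 hours 1 gene was higher, F3, and 3 were lower, Thbd, Tfpi and Vwf, where 13.7% and 10.1% of all genes were called. Leaving out 6-hour replicate 4 or 5, or 24-hour replicate 1, 3 or 4, ended the F3 call, with adjusted p between 0.0515 and 0.0728. From 24 hours to day 14, 8 genes fell and 0 rose, against 21.7% lower and 15.2% higher over all genes, and Plat and Plau were the 2 not called. Of the 8, Thbd (-0.04, adjusted p = 0.849) and Procr (-0.48, 0.223) did not pass with arrays centred on their medians. Procr (0.0797) and F3 (0.0547) were lost with quantile normalization, and F8 (0.282) and F3 (0.183) with the pan-leukocyte covariate. The F3 call also ended without day 14 replicate 1 (0.0593). From 6 hours to day 14 again 8 fell and 0 rose, against 25% and 19.8%. The fall of Plau in that comparison (-0.84 ± 0.305, adjusted p = 0.0268) was lost without 6-hour replicate 1 (0.0838) or 4 (0.0857) or day 14 replicate 4 (0.0515) or 5 (0.0864).

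How anticoagulant and procoagulant genes compared depended on whether F3 was counted. On each array the log2 signal of a gene was set against its non-irradiated mean and averaged over the 4 anticoagulant genes and over F8 and Vwf. F3 was left out of this average because it lay at background on many arrays, a choice made after its values were seen. The anticoagulant mean was 1.69 ± 0.0959 (SD, n = 5) at 6 hours, 1.16 ± 0.094 at 24 hours and 0.25 ± 0.103 at day 14. Procr had the largest change of the 4 at 24 hours (2.08, beside 0.44 for Thbd, 0.88 for Tfpi and 1.22 for Pros1). At day 14 it stood at 1.08, beside -0.12, -0.11 and 0.14 in the same order. The day 14 anticoagulant mean thus rests largely on Procr, and no average without Procr was set against F8 and Vwf. The mean of F8 and Vwf was 1.78 ± 0.381, 0.75 ± 0.147 and -0.49 ± 0.0834. The anticoagulant mean was therefore higher by -0.09 ± 0.333 at 6 hours, by 0.40 ± 0.189 at 24 hours and by 0.74 ± 0.0996 at day 14. On single non-irradiated arrays the difference ran from -0.63 to 0.42, at 24 hours from 0.10 to 0.56 and at day 14 from 0.63 to 0.90. Without F3 the day 14 arrays were thus all above the others' ranges, and the 24-hour arrays overlapped with the non-irradiated ones. With F3 kept in, the differences were 0.52 ± 0.408 at 6 hours, -0.20 ± 0.173 at 24 hours and 0.62 ± 0.767 at day 14, so the signs at 6 and at 24 hours both turned. The day 14 arrays then ran from 0.03 to 1.80 and overlapped with the non-irradiated ones, which ran from -1.04 to 0.90. No test was made of an average over chosen genes.

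**Figure D2:**
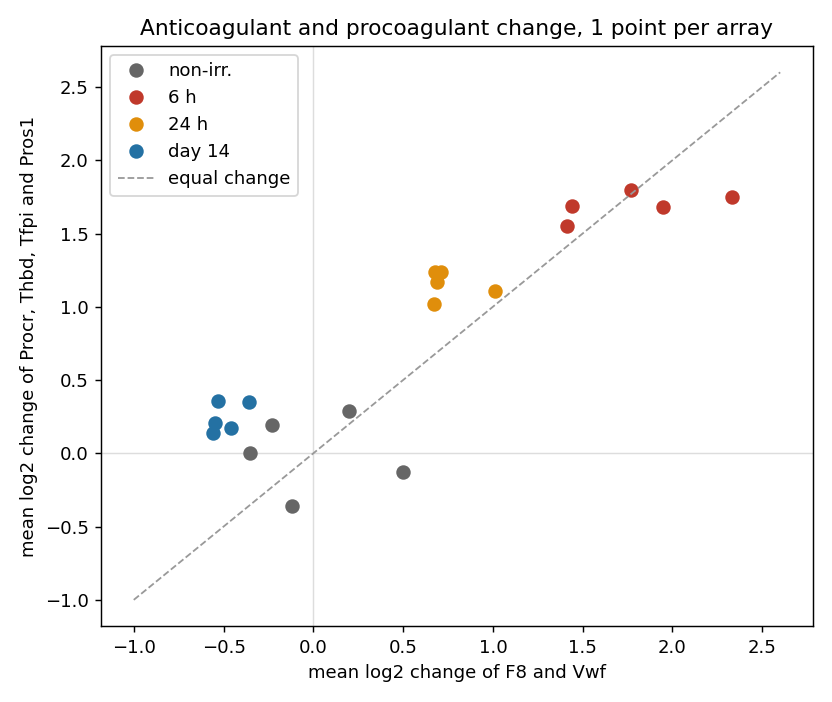
Mean log2 change of Procr, Thbd, Tfpi and Pros1 (vertical axis) against that of F8 and Vwf, without F3 (horizontal axis), on each of the 20 arrays, relative to the non-irradiated mean of each gene, with a dashed line of equal change. The 6-hour arrays lie on both sides of the line, and the day 14 arrays all lie above it, by 0.63 to 0.90.

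Relative to pan-endothelial markers the picture differed, because those markers themselves moved. Another endothelial list gave another day 14 value. The median log2 change was -0.09 for sinusoidal, -0.86 for arterial and -1.12 for pan-endothelial markers. Arrays were centred only on the pan-endothelial list, so day 14 values relative to it hold for that list. The mean of the 28 pan-endothelial markers changed by 1.46 (range over arrays 1.43 to 1.48) at 6 hours, by 0.54 (0.52 to 0.59) at 24 hours and by -1.02 (-1.09 to -0.97) at day 14. When each array was centred on that mean, 3 of the 10 genes were higher and 2 lower at 6 hours, with 0.835% and 76.2% of all genes so called. Procr (1.13 ± 0.306, adjusted p = 0.0019), Tfpi (0.58 ± 0.104, 1.93e-05) and Plau (0.76 ± 0.313, 0.0317) rose by more than the markers. Thbd (-0.59 ± 0.116, 6.63e-05) and Plaur (-1.39 ± 0.132, 7.45e-10) were lower relative to them. Vwf (0.36 ± 0.171, 0.0607), F8 (0.28 ± 0.287, 0.36) and Pros1 (-0.19 ± 0.0964, 0.0748) did not pass, so their rise at 6 hours was not shown to differ from that of the markers.

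At 24 hours 4 genes were higher on this scale and 1 lower, against 6.3% and 35.6% of all genes. These were Procr (1.54), Tfpi (0.34), Pros1 (0.68) and Plau (0.90), and Plaur (-0.55). At day 14 the counts were 6 and 1, but 49.1% of all genes were then called higher and 2.06% lower, and the median of the 10 genes (0.88) was near that of all genes (0.84). Plau (2.39 ± 0.313) and Procr (2.10 ± 0.306) had the largest day 14 values and Plaur (-0.65 ± 0.132, adjusted p = 0.000139) the only call below the markers. Vwf at day 14 read 0.22 ± 0.171 (0.308) relative to them, so its fall on the deposited scale was not seen here. Between irradiated groups 4 genes were higher and 2 lower at 24 than at 6 hours on this scale, against 53.8% and 1.1% of all genes. From 24 hours to day 14 the counts were 5 and 0 (63.6% and 0.797%), and from 6 hours to day 14 they were 8 and 0 (84.4% and 0.555%), so that the falls named above depend on the scale.

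**Figure D3:**
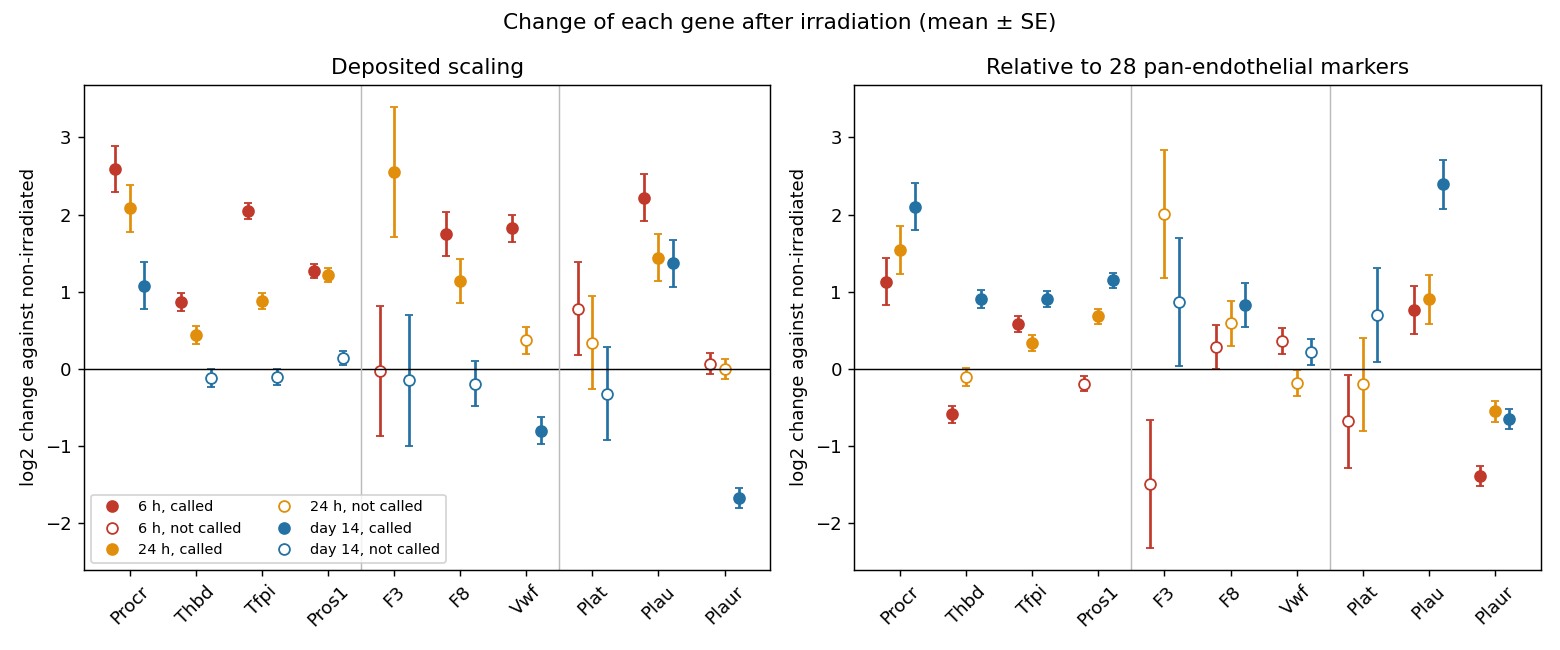
Log2 change against non-irradiated cells (mean ± SE, 5 arrays a group) of each gene at 6 hours, 24 hours and day 14, on the deposited scale (left) and relative to the mean of 28 pan-endothelial markers (right). Filled points passed an adjusted p under 0.05. On the left Procr is at 2.59, 2.08 and 1.08, and on the right at 1.13, 1.54 and 2.10, while Thbd moves from 0.87 to -0.59 at 6 hours.

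The day 14 values also depended on how arrays were brought to a common level. The deposited scaling fixes the trimmed mean of an array, while its median was lower at day 14. Centring arrays on their medians added 0.90 to every day 14 change, 0.38 at 24 hours and 0.25 at 6 hours, and moved the median of all genes from -0.18 to 0.72 at day 14. Calls over all genes went from 1723 higher and 2359 lower to 8211 and 461 at day 14, from 2861 and 2514 to 4949 and 1139 at 24 hours and from 2343 and 2640 to 3531 and 1617 at 6 hours. On that scale 6 of the 10 genes were higher and 1 lower at day 14, with Tfpi at 0.79, Thbd at 0.78, Pros1 at 1.04 and F8 at 0.71, while Plaur remained lower. With quantile normalization, which moved the median of all genes to 0.19, Tfpi passed as lower (-0.32, adjusted p = 0.0209). The day 14 directions of Tfpi, Thbd, F8 and Vwf therefore depend on the scale chosen, as does whether Pros1 passed.

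Other genes of haemostasis were taken from 7 lists by role, of which 54 of 62 members were measured. At 6 hours 17 of the 54 were higher and 2 lower (12.9% and 14.5% of all genes), at 24 hours 17 and 2 (15.7% and 13.8%), and at day 14 10 and 5 (9.47% and 13%). Their median change was 0.20, 0.38 and -0.21. All changes of these genes are given on the deposited scale only. Centring arrays on their medians would add 0.25, 0.38 and 0.90 to each in order of time. Centring on the pan-endothelial markers would add -1.46, -0.54 and 1.02. Rises and falls smaller than these shifts, such as the day 14 falls of S100a10, F5 and Ggcx below, therefore depend on the scale. All 3 measured receptors for thrombin and related proteases rose at 6 hours. F2r, the main thrombin receptor gene, went from 588 ± 170 to 3080 ± 696 (SD, n = 5; log2 change 2.40 ± 0.188, adjusted p = 2.48e-10) and stood at 1.24 ± 0.188 at 24 hours and 0.67 ± 0.188 at day 14. F2rl2 rose by 1.99 ± 0.206 at 6 hours, and F2rl3 by 1.82 ± 0.585 from a level near background. At 24 hours F2r alone of the 3 passed.

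Among genes of von Willebrand factor storage and of its platelet receptor 4 of 6 were higher at 6 hours, where 12.9% of all genes were. Selp, which encodes P-selectin of the same storage granules, rose from 506 ± 135 to 4400 ± 1150 (3.12 ± 0.206, adjusted p = 9.87e-12) and was still at 1.28 ± 0.206 at 24 hours. The platelet receptor genes Gp1bb and Gp5, which megakaryocytes express, rose by 1.40 ± 0.153 and 2.02 ± 0.353 at 6 hours and did not pass at 24 hours (0.25 and 0.59). At day 14 Selp read -0.18, Gp1bb -0.25 and Gp5 -0.08, below the threshold in each case.

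Other genes listed as anticoagulant had 3 higher and 1 lower of 10 at 6 hours (12.9% and 14.5% of all genes), and 4 and 0 at 24 hours (15.7% and 13.8%). The higher ones at both times included Gas6 (0.57 and 1.24), which is not an established anticoagulant. Tfpi2, a relative of Tfpi, rose from 93.1 ± 60.5 to 480 ± 108 at 6 hours (2.58 ± 0.342, adjusted p = 1.67e-06) and read 2.73 ± 0.342 and 1.43 ± 0.342 later. Anxa5, which shields the phospholipid that clotting needs, rose by 0.61, 1.49 and 0.34 in order of time. Adtrp, a regulator of Tfpi, was the 1 called lower at 6 hours, where it was at background on all arrays (mean 2.46). It read 37.1 ± 33.2 without irradiation, where 2 of 5 arrays lay above background, 189 ± 43.1 at 24 hours and 40.9 ± 11.8 at day 14. It was at least 4.45-fold higher at 24 than at 6 hours (adjusted p = 1.05e-08). Proc, the protein C gene of the liver, was at background on all day 14 arrays and near it elsewhere.

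Of 14 clotting factor genes 1 was higher at 6 hours, F10 (0.75 ± 0.257), 1 at 24 hours, Kng1 (0.85 ± 0.0919), and 1 was lower at day 14, F5 (-0.61 ± 0.181). Of all genes 12.9%, 15.7% and 13% were called in those directions, so these counts are not above the shares of all genes. Only F5, F10, F13a1 and Kng1 of the 14 lay above the array background on every array, and F9 and Fga did so on none. The shares of all genes are therefore no even comparison. Most of these factors are made in the liver, and F5 is also made by megakaryocytes. Among plasminogen receptors and proteases Anxa2 and S100a10, whose products form a complex that binds plasminogen, moved at different times. S100a10 rose from 4790 ± 519 to 8940 ± 1260 at 6 hours (0.89 ± 0.0934, adjusted p = 3.73e-08), stood at 0.60 at 24 hours and was lower at day 14 (-0.38 ± 0.0934, 0.00488). Anxa2 read 0.11 ± 0.105 at 6 hours and rose from 1920 ± 181 to 6390 ± 297 at 24 hours (1.74 ± 0.105, 1.62e-12). Lrp1, a clearance receptor of plasminogen activators, rose by 1.21 ± 0.149 at 24 hours. The membrane protease gene Hpn went from 797 ± 84 to 295 ± 238 at 6 hours and 117 ± 44.8 at 24 hours (-2.86 ± 0.331), in the arrays where erythroid markers were lowest, and read 706 ± 58.5 at day 14. The part of those cells was not tested. Klk8, another protease gene, was lower at day 14 (-1.34 ± 0.461).

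Of the fibrinolysis inhibitors 4 of 7 were measured, and 1 passed, A2m at 24 hours (0.96 ± 0.288). Of 10 genes that process clotting factors 5 were higher at 6 hours, 6 higher and 1 lower at 24 hours, and 5 higher and 1 lower at day 14. The shares of all genes were 12.9% higher at 6 hours, 15.7% and 13.8% at 24 hours, and 9.47% and 13% at day 14. These shares include dim genes, while all 10 processing genes lay above background on every array, so they are no even comparison. Vkorc1, the vitamin K reductase gene, read 0.55, 1.02 and 0.41 and Mcfd2, which helps carry factor VIII out of the endoplasmic reticulum, 0.56, 1.35 and 0.66, all past the threshold. Furin rose by 0.63 and 1.06 at the early times. Ggcx, the vitamin K dependent carboxylase that protein S needs, was lower at day 14 (-0.81 ± 0.245).

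**Figure D4:**
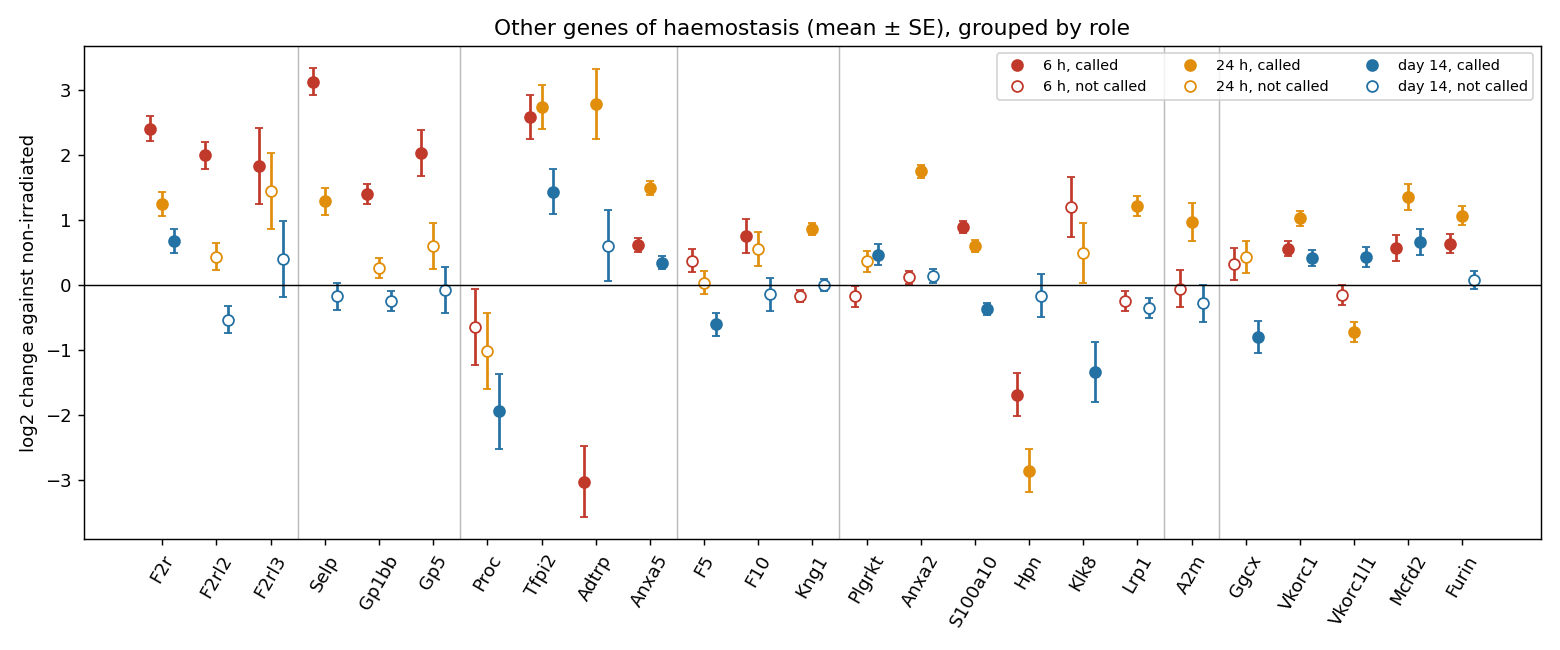
Log2 change against non-irradiated cells (mean ± SE, 5 arrays a group) of other haemostasis genes at 6 hours, 24 hours and day 14, with filled points for an adjusted p under 0.05. From left to right, lines separate protease receptors, von Willebrand factor storage and platelet receptor genes, anticoagulants, clotting factors, fibrinolysis enzymes and receptors, an inhibitor and processing genes. F2r is at 2.40 and Selp at 3.12 at 6 hours, and Anxa2 at 1.74 at 24 hours. The values of Adtrp at 6 hours and Proc at day 14 are not exact sizes, since those groups lay at background.

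The genes most like each of the 10 across the 20 arrays were taken from 12549 named genes above background on at least 15 arrays, by Pearson's correlation of log2 signal. These correlations follow the 4 group means as well as single arrays and are descriptions. Pros1 was most like Ephx1, an epoxide hydrolase gene, and Cdkn1a, the p53-induced cell cycle inhibitor (0.987 each). Tfpi was most like Flt4, a VEGF receptor gene of sinusoidal endothelium (0.983), and Akap12 (0.978), and Vwf like Ctla2b (0.976) and Tmem252 (0.975). Thbd was most like Bhlhe40 (0.962) and the endothelial marker Mmrn2 (0.949), and Plaur like Kcna5 (0.971) and Timp4 (0.957). Procr was most like Saa3, an acute phase gene (0.924), and Prss35 (0.904), F8 like Plod2 (0.931) and Nab1 (0.927), and Plau like Igll1 and Man1a (0.840 each). For F3 (Heph 0.808, Bbs10 0.772) and Plat (Art3 0.755, Arap2 0.734), which were at background on 10 and 4 arrays, the likeness was lowest.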

How the data were processed

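Each array came as a column of deposited intensities on a linear scale. On every array their mean was 500 once the outer 2% at both ends were removed, so the authors had scaled them to it. Expression Console and Transcriptome Analysis Console, both of Affymetrix, are named in the submitters' processing notes, and further steps are not given in the sources used here. Values were log2 transformed after adding 1. Of the probe sets 34958 carried a single gene symbol, and the one with the highest mean log2 signal stood for its gene, dim genes included.

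The test was limma 3.58.1 under R 4.3.3 (lmFit, then eBayes with an intensity trend), fitted once to all 20 arrays and tested on simulated data. The number of arrays limits the precision. The genes and lists were chosen with earlier results of these data known. Named genes were the 10, up to 3 called members of each other list with the largest change at each time, Gas6, and the 2 genes most like each of the 10. Background levels and marker lists are described with the results. Figures used Python 3.11.15 and matplotlib 3.10.9. In all, 13 alternatives and 20 fits that each left out 1 array were run.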

Additional observations from a re-analysis of the deposited data

Results flagged for a closer look

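Of 40 groups of 5 arrays, 4 for each of the 10 genes, 1 held an array far from the rest, where chance gives about 1 in 20. Plat read 109 on day 14 replicate 1, against 8.80 to 34.4 on the other 4 arrays of that group. Vwf was called higher than in non-irradiated cells at 6 hours and lower at day 14, and the direct difference between these times was -2.61 ± 0.171 on the log2 scale (adjusted p = 3.3e-12 in limma's test).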

How the results depend on the processing

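The number of arrays and, for F3 and Plat, signal near background limit these results. Of the 13 alternatives, centring on the pan-endothelial markers changed most. The counts of the 10 genes called higher and lower then became 3 and 2 at 6 hours (7 and 0 as deposited), 4 and 1 at 24 hours (7 and 0), 6 and 1 at day 14 (2 and 2), 4 and 2 from 6 to 24 hours (1 and 3), 5 and 0 from 24 hours to day 14 (0 and 8), and 8 and 0 from 6 hours to day 14 (0 and 8). Counting a value only where it passed on at least 1 of the scales, signs turned against non-irradiated cells for Pros1 (-0.19), Thbd (-0.59) and Plaur (-1.39) at 6 hours, Thbd (-0.10) at 24 hours, and F8 (0.83), Tfpi (0.90), Thbd (0.90) and Vwf (0.22) at day 14. By the same rule they turned from 6 to 24 hours for Plaur (0.84), Pros1 (0.87) and Thbd (0.49). From 24 hours to day 14 they turned for F8 (0.23), Plau (1.49), Procr (0.56), Pros1 (0.48), Tfpi (0.57), Thbd (1.00) and Vwf (0.40). From 6 hours to day 14 they turned for F3 (2.36), F8 (0.55), Plat (1.38), Plau (1.63), Plaur (0.73), Procr (0.97), Pros1 (1.34), Tfpi (0.32) and Thbd (1.49). These shifts follow from the change of the markers themselves (1.46, 0.54 and -1.02). Centring on medians gave 6 higher and 1 lower at day 14, and turned F8 (0.71), Tfpi (0.79), Thbd (0.78) and Vwf (0.10) there and Plaur (0.38) at 24 hours. With the 3′ minus 5′ covariate 4 were higher at 24 hours, 0 at day 14 and 0 from 6 to 24 hours, and 5 were lower from 6 hours to day 14. With the pan-leukocyte covariate 0 were higher at day 14 and 0 from 6 to 24 hours. Without probe sets open to cross-hybridization, Procr among them, 1 was higher at day 14. From 6 to 24 hours 0 were higher with dim genes left out or array weights, and 0 to 1 with an array left out. For covariates and weights the cause was not tested. The anticoagulant minus procoagulant difference with F3 (0.52 at 6 hours, -0.20 at 24 hours) became -0.09 and 0.40 with dim genes, F3 among them, left out. At 24 hours it was -0.41 with quantile normalization, 0.11 after adding 16 to signals, -0.50 without cross-hybridizing probe sets, and -0.46 (without non-irradiated replicate 1) to 0.03 (without replicate 5) with an array left out. Over all genes the day 14 counts, 1723 higher and 2359 lower, ran from 612 to 8936 and from 374 to 3625. At 6 hours 2343 and 2640 ran from 152 to 3531 and from 1600 to 13872, and at 24 hours 2861 and 2514 ran from 1147 to 4949 and from 1139 to 6482. Between 6 and 24 hours 2493 and 1831 ran from 875 to 9786 and from 201 to 1984, from 24 hours to day 14 2765 and 3944 from 1585 to 11571 and from 145 to 5458, and from 6 hours to day 14 3611 and 4553 from 2109 to 15348 and from 101 to 4879. Same-numbered arrays did not deviate together (30 pairs, r from -0.064 to 0.059), 3 of 20 arrays correlated best with their own number, and a replicate block left all 60 changes of the 10 genes, over 6 comparisons, with the same sign and on the same side of the threshold, with 7 higher and 0 lower at both early times.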
